A study of Mus musculus with 6 samples.

Results

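The genes of NADH:ubiquinone oxidoreductase, the complex I of the respiratory chain, were compared between hypoxic lungs of Nfat5(EC)-/- mice and of Nfat5fl/fl mice. The members were all array features whose mouse gene symbol begins with Nduf, without pseudogene names ending in -ps, which gave 44 genes of 25428 features. Of these, 34 encode subunits of complex I, 8 encode assembly factors that are not part of the finished enzyme, and Ndufa4 and Ndufa4l2 carry the name although the Ndufa4 protein is now counted with complex IV. The tested animals carried the genotype Nfat5(EC)-/-, a loss of Nfat5 in endothelial cells according to the title of the series, and the controls were Nfat5fl/fl mice with floxed alleles. Both groups held 3 mice, numbered 1, 3 and 4, with 1 array of 1 lung lobe per mouse, and all 6 mice had spent 7 days at 10% oxygen, so that no value describes the response to hypoxia itself. The sources used here name neither the Cre line behind the knockout nor the strain, age or sex of the mice. NFAT5, also called TonEBP, is a transcription factor known for inducing osmoprotective genes, and the comparison asks how lung transcripts differ when endothelial cells lack it. Nothing in the labels says more of the mice than their numbers. The p-values rest on the spread between these 3 animals per group, which limma draws toward a value estimated from all features.

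Complex I takes electrons from NADH, passes them through a flavin and a chain of iron-sulfur clusters to ubiquinone, and pumps protons across the inner mitochondrial membrane. Its matrix arm holds the N module, where NADH is oxidised, and the Q module, where ubiquinone is reduced, while the membrane arm pumps protons in a part proximal and a part distal to the matrix arm. Core subunits carry out the reaction and are shared with bacteria, accessory subunits surround them, and assembly factors guide modules together. In the lung, as in other tissues, the enzyme is a site where superoxide can form.

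Values were log2 expression after RMA, each feature summarising the probes of 1 gene, and ranged up to 13.01, and the median of each array was 2.98. Differences are Nfat5(EC)-/- minus Nfat5fl/fl in log2 units with their standard error (SE), and a gene passed where the adjusted p of limma, over all features, was under 0.05. Nfat5 itself had 4.46, 4.48 and 3.89 in lungs of Nfat5(EC)-/- mice 1, 3 and 4, against 6.65, 6.58 and 6.30 in lungs of Nfat5fl/fl mice 1, 3 and 4, a difference of -2.23 (SE 0.23, adjusted p = 0.0015). Across features, arrays correlated at 0.916 to 0.939 within Nfat5(EC)-/- and at 0.968 to 0.970 within Nfat5fl/fl, and precision is limited by the small number of arrays. Since the arrays held RNA of whole lobes, fewer cells of a type and less RNA per cell cannot be told apart. All arrays below are given in the order of mice 1, 3 and 4.

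Of the 44 Nduf genes, 9 rose, 1 fell and 34 did not pass. The 9 genes are 20.5% of the members, against a background of 12.5% of all features that passed in this direction, and the 1 gene is 2.27%, against 13.1% of all features that passed in the other. At an unadjusted p under 0.05 there were 11 and 3 genes, against 4834 and 4727 of all 25428 features. With features of a mean under 2.98 left out, 10 of 40 members rose, against 23.3% of the features kept. The median difference of the 44 genes was 0.12, against 0.04 over all features, and single genes ranged from -1.42 for Ndufs1 to 1.23 for Ndufb2. The 3 Nfat5(EC)-/- arrays lay above the 3 Nfat5fl/fl arrays for 13 members, where 22% of all features did so, and below them for 5 members, where 20% of all features did so. The counts moved with single arrays, as did the shares of all features. Without Nfat5fl/fl mouse 1 or mouse 3, 5 genes rose, against 6.25% and 5.75% of all features. Without Nfat5(EC)-/- mouse 4, 7 rose and 3 fell, against 10.7% and 12.5% of all features. The calls for Ndufb2, Ndufs7, Ndufv1, Ndufa13, Ndufa4l2 and Ndufs1 held whichever single array was left out.

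**Figure D1:**
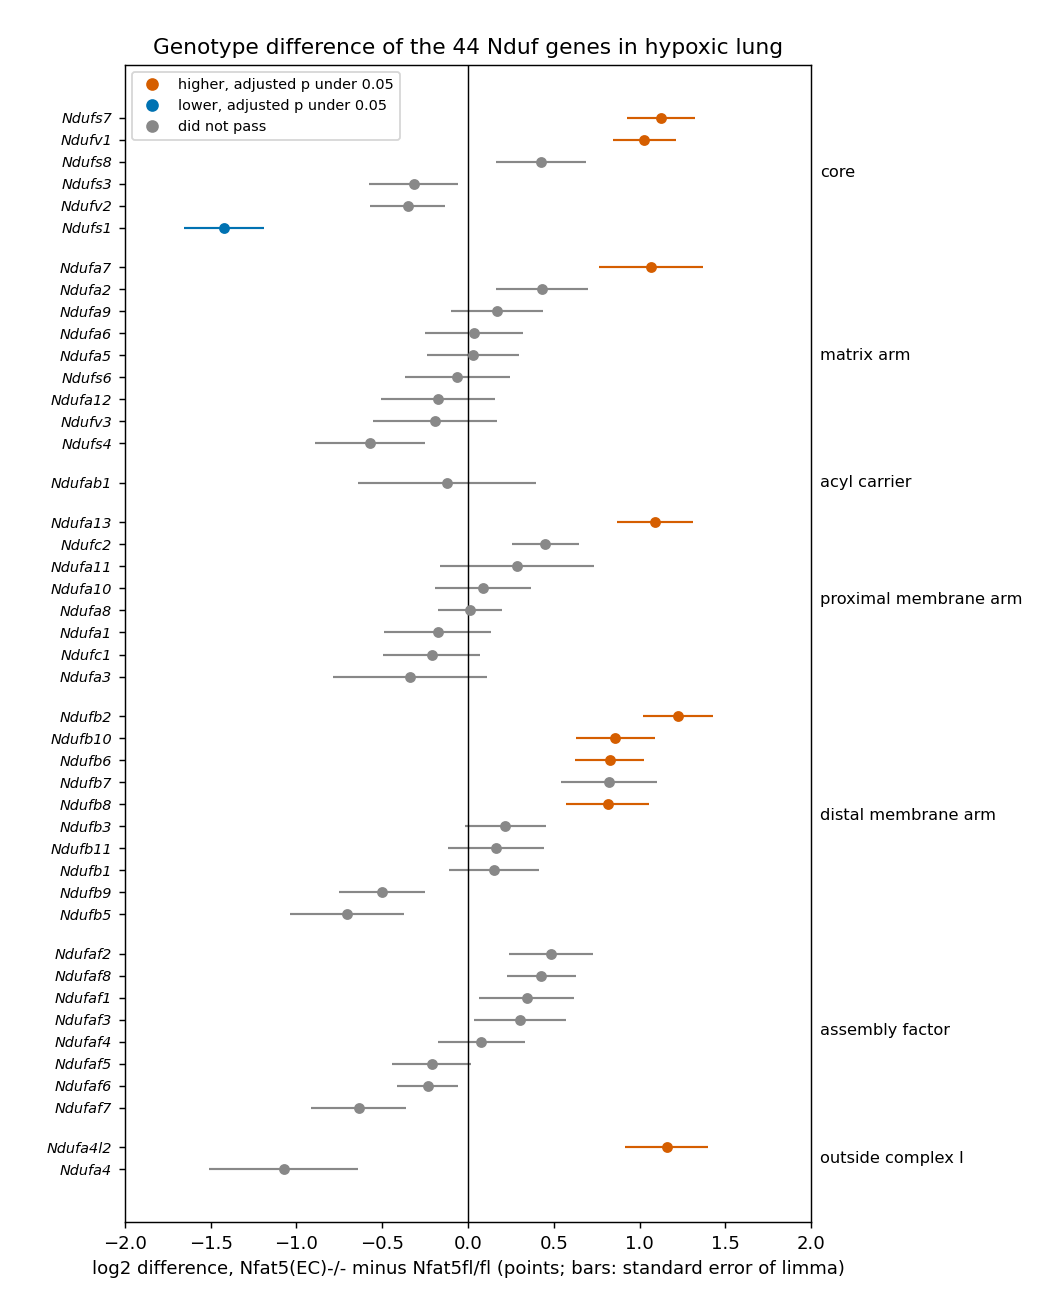
Log2 difference, Nfat5(EC)-/- minus Nfat5fl/fl, of each of the 44 Nduf genes by class, with bars for the standard error of limma (3 arrays per genotype). Orange points mark the 9 genes that rose, the blue point marks Ndufs1, which fell by 1.42, and grey points mark the 34 genes that did not pass.

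The promoters of these genes are shown because members of 1 enzyme can share elements near their starts. RefSeq windows of GRCm38.p6, from 250 bases before to 50 bases after a gene's start, were matched by gene for 39 of the 44 members, and motifs were searched on both strands. The NRF1 motif GCGCANGCG, bound by a regulator of nuclear genes for mitochondrial proteins, was found in 8 of the 39 windows (20.5%, against 7.03% of the windows of 27025 genes and 9.63% of those of protein-coding genes). The YY1 motif AAGATGGCG was found in 6 windows (15.4%, against 1.64% of all genes and 2.14% of protein-coding genes). The ETS motif CCGGAAG was found in 6 (15.4%, against 9.93% of all and 12.9% of protein-coding genes), and TNAAGGTCA, the motif of estrogen-related receptors, in 0 (against 1.43% of all and 1.19% of protein-coding genes). The tonicity element TonE, the motif that NFAT5 binds, was found in the windows of Ndufb10 and Ndufs3, which are 5.13% of the 39, against 5.74% of all and 5.04% of protein-coding genes. Its letters, the longest of those searched, allow several bases at some positions. Among the 8 genes that rose and had a window, Ndufb10 held the NRF1 and the TonE motifs, Ndufs7 the YY1 motif and Ndufb6 the ETS motif, and the other 5 held none of those searched. Of the 31 other members with a window, 7 held the NRF1 motif, 5 the YY1 motif, 5 the ETS motif and 1 the TonE motif. A match is a run of letters and not a measured binding site, and no binding was measured here. The lines below give the 250 bases before the start, 5′ to 3′ on the strand of the gene, for Ndufb2 (chr6:39592315-39592564, plus strand), which had the largest rise and no match, for Ndufb10 (chr17:24724424-24724673, minus strand), for Ndufb6 (chr4:40279422-40279671, minus strand) and for Ndufa8 (chr2:36049339-36049588, minus strand), which held the NRF1 motif and had a difference of 0.01. Capitals mark the TonE match that begins 151 bases before the start of Ndufb10, the ETS match 232 bases before that of Ndufb6, and the NRF1 matches 29 and 9 bases before that of Ndufa8. The NRF1 match of Ndufb10 lies partly or wholly beyond the bases shown, so that it is not in capitals.
Ndufb2: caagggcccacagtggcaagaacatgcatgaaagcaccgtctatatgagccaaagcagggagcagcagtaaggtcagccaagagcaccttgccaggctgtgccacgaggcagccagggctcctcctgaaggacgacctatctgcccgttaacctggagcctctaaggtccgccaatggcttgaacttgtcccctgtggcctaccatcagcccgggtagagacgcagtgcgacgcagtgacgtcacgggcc
Ndufb10: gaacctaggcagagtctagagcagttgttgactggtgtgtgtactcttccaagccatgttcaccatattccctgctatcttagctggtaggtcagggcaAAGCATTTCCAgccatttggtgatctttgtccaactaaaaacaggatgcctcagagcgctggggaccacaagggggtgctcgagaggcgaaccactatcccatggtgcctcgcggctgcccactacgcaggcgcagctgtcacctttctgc
Ndufb6: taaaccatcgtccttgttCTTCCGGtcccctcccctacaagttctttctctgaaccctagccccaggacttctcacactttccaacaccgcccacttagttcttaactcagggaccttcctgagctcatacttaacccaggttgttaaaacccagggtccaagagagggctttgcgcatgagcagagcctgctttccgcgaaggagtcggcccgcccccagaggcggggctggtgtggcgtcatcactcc
Ndufa8: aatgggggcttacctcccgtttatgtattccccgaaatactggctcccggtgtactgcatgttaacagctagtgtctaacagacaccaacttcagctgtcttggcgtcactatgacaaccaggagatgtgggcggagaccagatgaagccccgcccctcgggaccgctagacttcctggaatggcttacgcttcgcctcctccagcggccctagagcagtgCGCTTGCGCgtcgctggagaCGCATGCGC

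The core subunits moved in both directions, with 2 of 6 measured genes higher and 1 lower. Ndufv1, which binds NADH and the flavin, had 6.22, 6.46 and 6.29 in Nfat5(EC)-/- lungs, against 5.39, 5.21 and 5.29 in Nfat5fl/fl lungs. Every knockout array lay above every control array, and the difference was 1.03 (SE 0.18, adjusted p = 0.0052), a 2.04-fold higher level. Ndufs7, which carries the last iron-sulfur cluster before ubiquinone, had 7.36, 7.35 and 7.47 in Nfat5(EC)-/- lungs, against 6.08, 6.21 and 6.52 in Nfat5fl/fl lungs. Its groups did not overlap either, and the difference was 1.12 (SE 0.20, adjusted p = 0.0049). Ndufs1, the largest core subunit, whose iron-sulfur clusters lie in the N module beside Ndufv1, had 3.22, 3.69 and 2.91 in Nfat5(EC)-/- lungs, against 4.78, 4.64 and 4.67 in Nfat5fl/fl lungs. It was the only Nduf gene that fell, by 1.42 (SE 0.23, adjusted p = 0.0039), and its highest knockout array lay below its lowest control array. Across its alternatives without 1 array the difference of Ndufs1 stayed between -1.63 and -1.24.

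The other 3 core genes overlapped between the groups and did not pass. Ndufs8, an iron-sulfur subunit of the Q module, had 5.77, 6.10 and 6.57 in Nfat5(EC)-/- lungs, against 5.37, 5.79 and 5.998 in Nfat5fl/fl lungs (difference 0.43, SE 0.26, adjusted p = 0.28). Ndufv2, the iron-sulfur subunit next to the flavin, had 4.85, 4.53 and 5.21 in Nfat5(EC)-/- lungs, against 5.32, 5.15 and 5.17 in Nfat5fl/fl lungs (difference -0.35, SE 0.22, adjusted p = 0.29). Ndufs3 of the Q module had 3.27, 3.55 and 2.66 in Nfat5(EC)-/- lungs, against 3.28, 3.68 and 3.48 in Nfat5fl/fl lungs (difference -0.32, SE 0.26, adjusted p = 0.42). In each of these genes the knockout arrays were spread more widely than the control arrays.

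**Figure D2:**
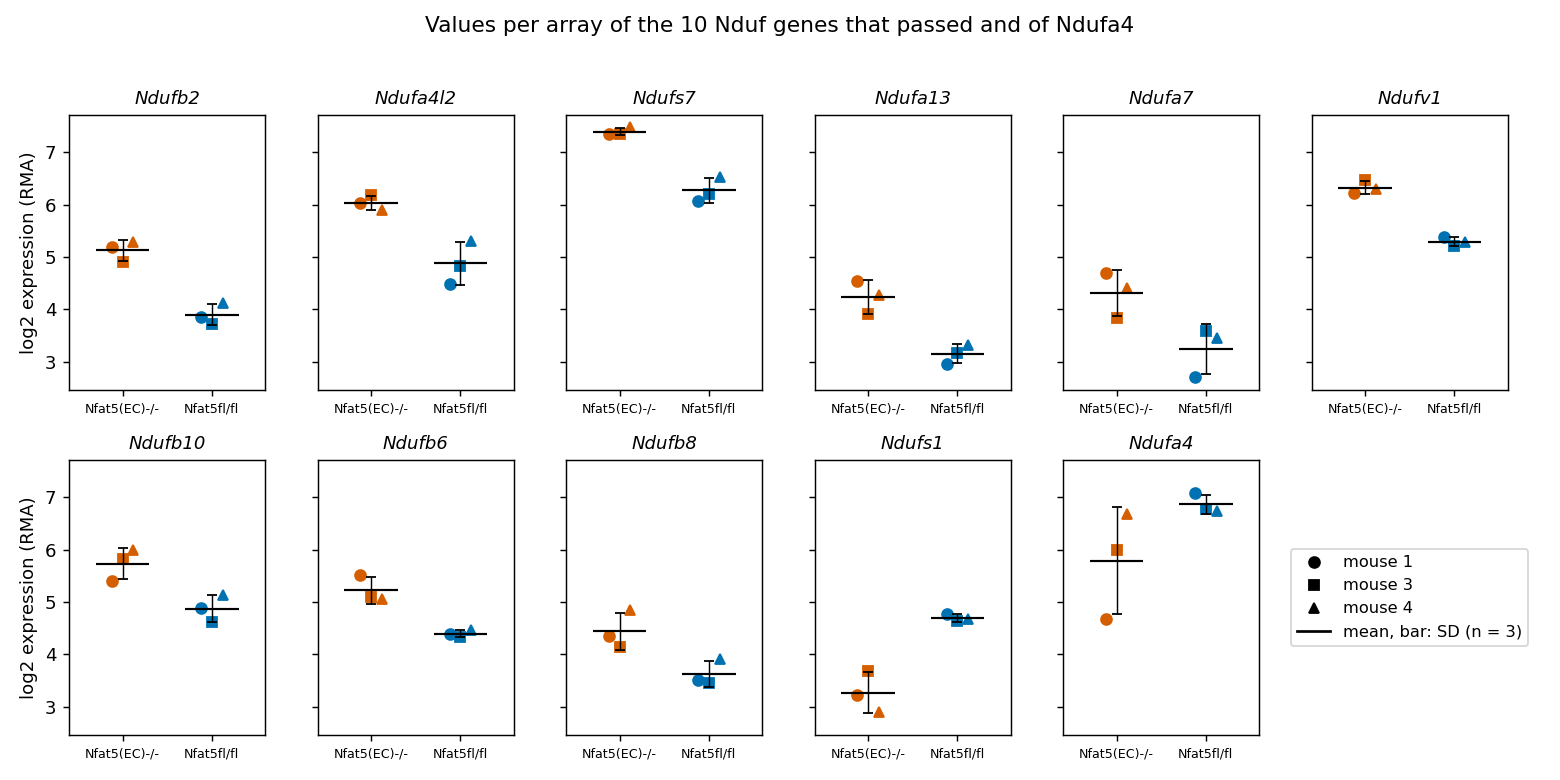
Log2 expression on each array of the 10 Nduf genes that passed and of Ndufa4, with Nfat5(EC)-/- left of Nfat5fl/fl, lines for the mean and bars for the SD of 3 mice. In 9 panels all knockout arrays lie above all control arrays, and in those of Ndufs1 and Ndufa4 they lie below.

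Among the 9 accessory subunits of the matrix arm, 1 rose and none fell, with a median difference of 0.03. Ndufa7, counted here with the Q module, had 4.70, 3.83 and 4.42 in Nfat5(EC)-/- lungs, against 2.70, 3.58 and 3.45 in Nfat5fl/fl lungs. The groups were apart, though by little between knockout mouse 3 and control mouse 3, and the difference was 1.07 (SE 0.30, adjusted p = 0.0315). This call was lost without Nfat5(EC)-/- mouse 1 or mouse 4 and without any of the 3 Nfat5fl/fl arrays, with adjusted p of 0.0560 to 0.12. With the arrays weighted by quality the adjusted p of Ndufa7 was 0.0536.

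Ndufs4, an N module subunit whose mutation causes Leigh syndrome in humans and whose knockout mouse is a model of it, had 3.30, 4.47 and 4.54 in Nfat5(EC)-/- lungs, against 4.74, 4.73 and 4.56 in Nfat5fl/fl lungs (difference -0.57, SE 0.32, adjusted p = 0.23). All knockout arrays were below the controls, mouse 1 by far the most and mouse 4 only just. Ndufa2, an N module subunit with a thioredoxin-like fold, had 4.47, 4.35 and 5.31 in Nfat5(EC)-/- lungs, against 4.33, 4.32 and 4.19 in Nfat5fl/fl lungs (difference 0.43, SE 0.27, adjusted p = 0.28). Here knockout mouse 4 stood above the others, and without it the difference was 0.13. Ndufa9, at the joint of both arms, had 4.90, 5.69 and 5.86 in Nfat5(EC)-/- lungs, against 5.30, 5.19 and 5.45 in Nfat5fl/fl lungs (difference 0.17, SE 0.27, adjusted p = 0.70). The remaining matrix arm genes were Ndufv3, Ndufa12, Ndufs6, Ndufa6 and Ndufa5, whose groups overlapped and whose differences lay between -0.19 and 0.03. RefSeq lists pseudogenes named after Ndufa12, Ndufs6, Ndufa11 and Ndufab1, and the sources used here do not say how the probes treat such copies, so that the values of these genes are uncertain.

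By module as assigned here, the N module held 8 measured genes with 1 higher, 1 lower and a median of -0.18. The Q module held 7 with 2 higher (Ndufs7 and Ndufa7), none lower and a median of 0.17, and these counts depend on the assignment. No Q module gene fell at an unadjusted p under 0.05 either. Whether the modules differ was not tested.

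The proximal membrane arm held 8 measured accessory genes, of which 1 rose and none fell (median 0.05). Ndufa13, also known as GRIM-19 from its link with cell death after interferon and retinoic acid, had 4.54, 3.90 and 4.28 in Nfat5(EC)-/- lungs, against 2.96, 3.17 and 3.32 in Nfat5fl/fl lungs. The lowest knockout array lay above the highest control array, and the difference was 1.09 (SE 0.22, adjusted p = 0.0089). Ndufc2 had 6.45, 6.61 and 6.78 in Nfat5(EC)-/- lungs, against 6.33, 6.17 and 5.99 in Nfat5fl/fl lungs, groups that were also apart (difference 0.45, SE 0.20, adjusted p = 0.13). Ndufa3, a small single-span membrane subunit, had 6.05, 6.95 and 8.18 in Nfat5(EC)-/- lungs, against 7.31, 7.31 and 7.59 in Nfat5fl/fl lungs (difference -0.34, SE 0.45, adjusted p = 0.64). The controls lay within the wide range of the knockout arrays, and without Nfat5(EC)-/- mouse 1 the sign turned (0.17). Ndufc1 had 5.34, 6.18 and 6.40 in Nfat5(EC)-/- lungs, against 6.03, 6.18 and 6.34 in Nfat5fl/fl lungs (difference -0.21, SE 0.28, adjusted p = 0.64), and the sign turned in the same way without that mouse (0.11). The 4 other proximal genes, Ndufa1, Ndufa8, Ndufa10 and Ndufa11, overlapped between the groups, with differences from -0.18 to 0.29.

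The distal membrane arm, which surrounds the outer proton pumps, held the most genes that rose: 4 of 10, with none lower and a median difference of 0.52. Ndufb2 had 5.20, 4.90 and 5.28 in Nfat5(EC)-/- lungs, against 3.86, 3.72 and 4.12 in Nfat5fl/fl lungs. The groups were well apart, and the difference of 1.23 was the largest rise of the 44 genes (SE 0.21, adjusted p = 0.0043, 2.34-fold). Ndufb6 had 5.52, 5.10 and 5.06 in Nfat5(EC)-/- lungs, against 4.39, 4.33 and 4.47 in Nfat5fl/fl lungs (difference 0.83, SE 0.20, adjusted p = 0.0173). The 3 control arrays lay close together, and all knockout arrays were above them. Ndufb10, a subunit on the side of the intermembrane space that is held by disulfide bonds, had 5.40, 5.82 and 5.99 in Nfat5(EC)-/- lungs, against 4.89, 4.61 and 5.13 in Nfat5fl/fl lungs (difference 0.86, SE 0.23, adjusted p = 0.0257). Ndufb8, whose protein is widely used as a marker of assembled complex I, had 4.34, 4.14 and 4.84 in Nfat5(EC)-/- lungs, against 3.51, 3.46 and 3.91 in Nfat5fl/fl lungs (difference 0.81, SE 0.24, adjusted p = 0.0364). In both genes the groups were apart, and whether the distal arm differs from the other classes was not tested. At an unadjusted p under 0.05 none of the accessory subunits of the matrix arm, the proximal or the distal membrane arm fell either.

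Some of these calls rested on few arrays. Without Nfat5fl/fl mouse 1 or mouse 3, Ndufb6, Ndufb8 and Ndufb10 no longer passed (adjusted p from 0.0654 to 0.14), Ndufb8 and Ndufb10 were also lost without Nfat5(EC)-/- mouse 4 (0.0847 for Ndufb8 and 0.0636 for Ndufb10), and Ndufb10 without Nfat5(EC)-/- mouse 3 (0.0603). Their differences stayed positive throughout, at 0.61 or more.

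Ndufb7, a disulfide-bonded subunit like Ndufb10, had 5.27, 5.30 and 5.98 in Nfat5(EC)-/- lungs, against 4.66, 4.30 and 5.13 in Nfat5fl/fl lungs. It did not pass (difference 0.82, SE 0.28, adjusted p = 0.0612), although its groups were apart. Ndufb5 had 3.59, 4.72 and 4.98 in Nfat5(EC)-/- lungs, against 5.17, 5.16 and 5.08 in Nfat5fl/fl lungs, with all knockout arrays lower and knockout mouse 1 lowest (difference -0.70, SE 0.33, adjusted p = 0.16). Ndufb9, which binds the acyl carrier protein, had a difference of -0.50 (adjusted p = 0.18), with 7.06, 7.41 and 7.92 in Nfat5(EC)-/- lungs, against 7.86, 7.85 and 8.18 in Nfat5fl/fl lungs. These groups overlapped by knockout mouse 4. Ndufb1, Ndufb3 and Ndufb11 had differences of 0.15 to 0.22 with overlapping groups. Ndufb3 lay at 1.25 to 1.97 on all arrays, near the low end of the scale, where differences are compressed. Ndufb4 was not analysed here.

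Ndufab1, the mitochondrial acyl carrier protein, which sits in both arms and also serves fatty acid and lipoic acid synthesis, had 5.08, 4.63 and 2.71 in Nfat5(EC)-/- lungs, against 4.38, 4.38 and 4.02 in Nfat5fl/fl lungs. The knockout arrays fell on both sides of the controls, mouse 4 far below them, and the difference was -0.12 (SE 0.52, adjusted p = 0.90), the largest SE of the 44 genes. Without Nfat5(EC)-/- mouse 4 it was 0.59.

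None of the 8 assembly factors passed limma's test in either direction, and at an unadjusted p under 0.05 there was 1, Ndufaf7, with a negative difference. The median difference was 0.19. Ndufaf7, a mitochondrial methyltransferase, had 3.79, 3.32 and 4.13 in Nfat5(EC)-/- lungs, against 4.25, 4.82 and 4.08 in Nfat5fl/fl lungs (difference -0.64, SE 0.28, adjusted p = 0.13). Ndufaf8, the partner of Ndufaf5, had 3.42, 3.86 and 3.81 in Nfat5(EC)-/- lungs, against 3.14, 3.36 and 3.30 in Nfat5fl/fl lungs (difference 0.43, SE 0.20, adjusted p = 0.16). All knockout arrays of Ndufaf8 lay above the controls, with mouse 1 close to the highest of them. Ndufaf2, a paralog of Ndufa12, had 3.68, 3.29 and 2.82 in Nfat5(EC)-/- lungs, against 2.88, 2.80 and 2.66 in Nfat5fl/fl lungs (difference 0.48, SE 0.24, adjusted p = 0.18). Its knockout mouse 4 lay among the controls, and without that array the difference was 0.70 (adjusted p = 0.0482). Ndufaf6 had 2.37, 2.54 and 2.47 in Nfat5(EC)-/- lungs, against 2.77, 2.66 and 2.66 in Nfat5fl/fl lungs (difference -0.23, SE 0.18, adjusted p = 0.38), so that its groups were apart over a small distance. Ndufaf1, which belongs to the mitochondrial complex I assembly complex (MCIA), Ndufaf3 and Ndufaf4, which act together on the Q module, and Ndufaf5, a hydroxylase of Ndufs7, overlapped between the groups, with differences of -0.21 to 0.34.

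Ndufa4l2, a paralog of Ndufa4 known to be induced by HIF1 in hypoxia, had 6.03, 6.17 and 5.90 in Nfat5(EC)-/- lungs, against 4.48, 4.83 and 5.31 in Nfat5fl/fl lungs. Its groups did not overlap, and the difference was 1.16 (SE 0.24, adjusted p = 0.0096, 2.23-fold). Ndufa4 had 4.69, 5.99 and 6.69 in Nfat5(EC)-/- lungs, against 7.08, 6.77 and 6.74 in Nfat5fl/fl lungs. All knockout arrays were lower, mouse 1 by the most and mouse 4 only just below the nearest control, and the difference of -1.07 did not pass (SE 0.43, adjusted p = 0.10). Without Nfat5(EC)-/- mouse 4 it was -1.52 (adjusted p = 0.0210).

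Another 14 assembly factors of complex I, whose symbols do not begin with Nduf, were counted from a list. None rose (0 also at an unadjusted p under 0.05) and 3 fell, with a median difference of -0.38, against 12.5% and 13.1% of all features. Lyrm2 had 2.74, 2.35 and 3.51 in Nfat5(EC)-/- lungs, against 4.10, 3.97 and 3.80 in Nfat5fl/fl lungs (difference -1.09, SE 0.29, adjusted p = 0.0246). Aifm1, which is also the apoptosis-inducing factor, had 2.98, 4.09 and 3.53 in Nfat5(EC)-/- lungs, against 4.47, 4.79 and 4.46 in Nfat5fl/fl lungs (difference -1.04, SE 0.28, adjusted p = 0.0270). The groups of both genes were apart, and the third gene that fell was Tmem126b of the MCIA complex (-0.94, adjusted p = 0.0440). The count of 3 was 0 without any 1 of the Nfat5fl/fl arrays and 1 without Nfat5(EC)-/- mouse 1. Of all features, 6.63%, 6.12% and 9.51% fell without Nfat5fl/fl mouse 1, 3 or 4. Without Nfat5(EC)-/- mouse 1 this share was 12.2%. Core subunits encoded by mitochondrial DNA were not analysed here.

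The other respiratory complexes were counted for comparison. Of 42 genes of complexes II to V, 15 rose and 3 fell (35.7% and 7.14%), with a median of 0.29. Cox4i1 of complex IV rose by 1.57 (SE 0.21, adjusted p = 0.0023) and Uqcrc1 of complex III by 1.60 (SE 0.24, adjusted p = 0.0030). Uqcrc2, its partner in complex III, fell by 1.58 (SE 0.29, adjusted p = 0.0055) and Sdha of complex II fell by 1.27 (SE 0.29, adjusted p = 0.0142). The call for Sdha was lost without Nfat5fl/fl mouse 1 (adjusted p = 0.0604) or mouse 3 (0.0535). As in complex I, subunits of 1 complex thus moved in opposite directions. Of 76 mitochondrial ribosomal proteins, which translate the core subunits encoded in mitochondria, 18 rose and 5 fell (23.7% and 6.58%), with a median of 0.27 and differences such as 1.11 for Mrpl14, 1.26 for Mrps12, -0.93 for Mrpl1 and -1.11 for Mrpl24. Mrpl1 and Mrpl24 did not pass without Nfat5fl/fl mouse 1 or mouse 3 (adjusted p of 0.0682 to 0.11), nor did Mrpl1 without Nfat5fl/fl mouse 4 (0.0836). Whether these shares differ from that of the Nduf genes was not tested.

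The Nduf genes varied between the knockout mice. The median over the 44 genes of the difference from the Nfat5fl/fl mean of the same gene was -0.15, 0.18 and 0.50 in Nfat5(EC)-/- mice 1, 3 and 4, against -0.01, -0.04 and 0.03 in Nfat5fl/fl mice 1, 3 and 4. In the knockout arrays 20, 26 and 31 of the 44 genes lay above that mean, against 21, 18 and 24 in the control arrays. Knockout mouse 4 was thus above the control mean for most members. The median of knockout mouse 1 lay below those of the control arrays, but its count of 20 lay within their range. The median SD over 3 arrays was 0.43 for the Nduf genes in Nfat5(EC)-/- lungs and 0.18 in Nfat5fl/fl lungs, while over all features it was 0.30 in Nfat5(EC)-/- lungs and 0.20 in Nfat5fl/fl lungs. The median difference of the 44 genes was 0.26 without Nfat5(EC)-/- mouse 1 and 0.015 without Nfat5(EC)-/- mouse 4.

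**Figure D3:**
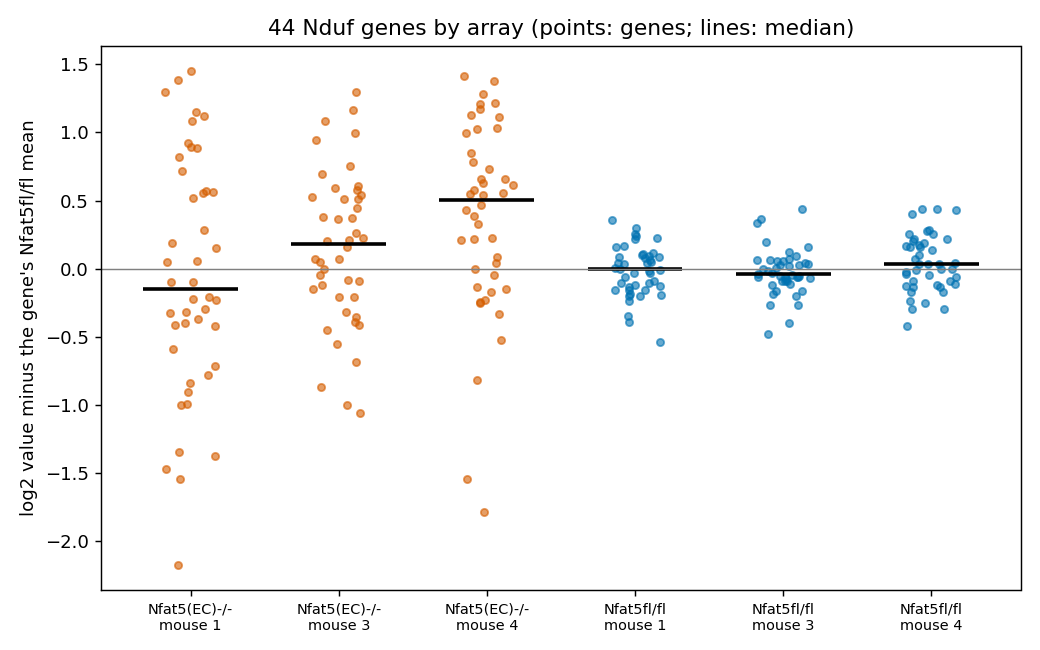
Log2 value of each of the 44 Nduf genes on each array minus the mean of that gene over the Nfat5fl/fl arrays (points), with the median as a line. Medians are -0.15, 0.18 and 0.50 for the Nfat5(EC)-/- arrays. Each control array is part of the mean it is set against, which draws its points closer to 0. The median SD over 3 arrays around each group's own mean was also smaller in Nfat5fl/fl lungs (0.18, against 0.43 in Nfat5(EC)-/- lungs).

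The difference also went with gene span, the distance introns included, between both ends of a gene. Over the 44 members Spearman's rho between difference and span was -0.31, and over 19686 protein-coding features it was -0.32, a description across genes of the same arrays. Of the 28 members of at most 10000 bp, a limit chosen after the values were seen, 8 rose and none fell (1, Ndufa4, at an unadjusted p under 0.05), with a median of 0.32, and of the 16 longer members, 1 rose (Ndufa7, 13745 bp) and 1 fell (Ndufs1, 33231 bp), with a median of -0.20. Among all protein-coding features up to the same limit 17.1% rose and 3.33% fell, and among longer ones 11.3% rose and 21.1% fell. The median span was 7839.5 bp for the Nduf genes and 18478.5 bp for protein-coding features. With the trend on span removed from each array, 7 Nduf genes rose and 4 fell, and the median difference was -0.05. In that fit 12.9% of the 19686 protein-coding features rose and 13.2% fell. Ndufb6, Ndufb8 and Ndufb10 then no longer passed (adjusted p = 0.0625, 0.0997 and 0.0811), while Ndufa4 (-1.33, adjusted p = 0.0431), Ndufaf7 (-0.83, adjusted p = 0.0470) and Ndufb9 fell and Ndufaf2 rose (0.86, adjusted p = 0.0264). The directions of the calls that held under this scaling were those given above.

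**Figure D4:**
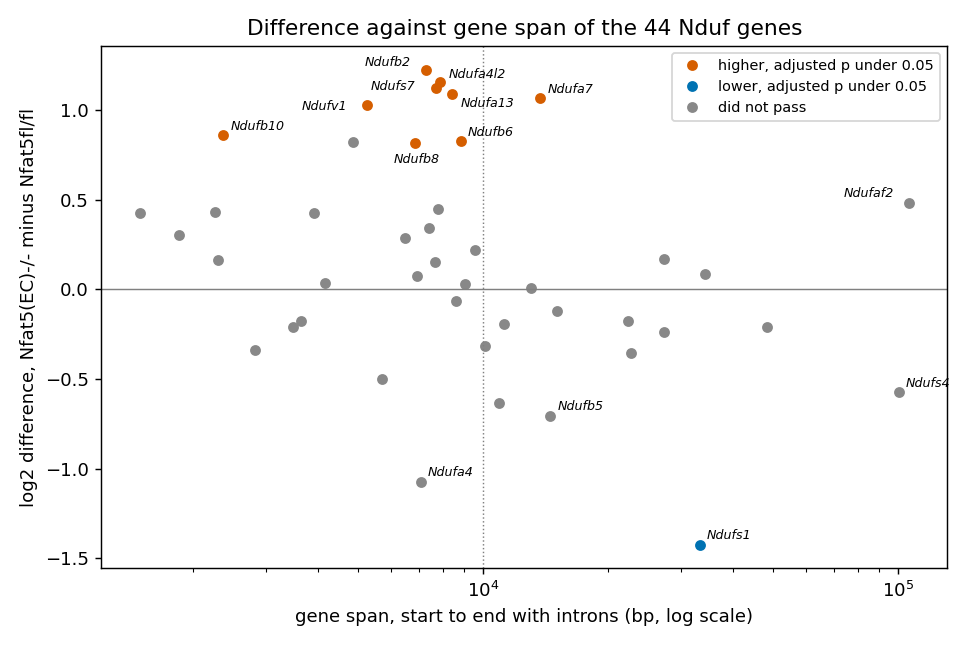
Log2 difference, Nfat5(EC)-/- minus Nfat5fl/fl, of the 44 Nduf genes against gene span in bp on a log axis, with a dotted line at 10000 bp. Of the 9 genes that rose (orange), 8 lie left of the line, and Ndufs1 (blue), which fell, lies right of it.

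Markers of tissues rich in mitochondria and of lung cell types were read beside these results. Of 7 lung epithelium markers none rose and 1 fell (1 and 2 at an unadjusted p under 0.05), with a list median of -0.34. The marker that fell was Sftpa1 (-1.04, adjusted p = 0.0070), and Scgb1a1 did not pass although all its knockout arrays were lower (-0.59, adjusted p = 0.0525). Ager did not pass although all its knockout arrays were higher (0.64, adjusted p = 0.0950). Sftpc lay at 11.25 to 12.24 in Nfat5(EC)-/- lungs and 12.13 to 12.24 in Nfat5fl/fl lungs. The groups of Sftpc (-0.44), Hopx (-0.34), Sftpb (-0.28) and Scgb3a2 (0.21) overlapped. Of 6 cardiac muscle markers 2 rose, Myh6 (0.85, adjusted p = 0.0215) and Actc1 (0.91, adjusted p = 0.0425), and none fell (3 and 0 at an unadjusted p under 0.05). Their list median was 0.67. Tnnt2 did not pass although all its knockout arrays were lower (-0.49, adjusted p = 0.14). Nppa, Myl7 and Tnni3 did not pass either, with positive differences and overlapping groups. The median level of the cardiac list was 5.74, 4.95 and 5.84 in Nfat5(EC)-/- lungs, against 4.46, 4.63 and 4.78 in Nfat5fl/fl lungs. Of 6 brown adipocyte markers none rose (1 at an unadjusted p under 0.05) and 2 fell, Cox8b (-0.94, adjusted p = 0.0489) and Ucp1 (-2.33, adjusted p = 0.0042), with Ucp1 at 1.73 to 3.20 in Nfat5(EC)-/- lungs, against 4.44 to 5.24 in Nfat5fl/fl lungs. Of 6 endothelial markers Cdh5, Tek and Pecam1 fell and Cldn5 rose (list median -1.21). Tie1, with all knockout arrays higher (0.57, adjusted p = 0.10), and Kdr, with all lower (-0.91, adjusted p = 0.11), did not pass. Of 4 alveolar macrophage markers Mrc1 fell (list median -0.96). Chil3 (-1.75) and Siglecf (-0.45) did not pass although all their knockout arrays were lower, nor did Marco (0.39), whose groups overlapped. None of 4 smooth muscle and none of 3 erythroid markers passed limma's test (0 also at an unadjusted p under 0.05). The 106 small nucleolar RNAs, which are nuclear, had a median level of 7.43, 6.49 and 6.43 in Nfat5(EC)-/- lungs, against 4.01, 4.20 and 4.15 in Nfat5fl/fl lungs, and 80 of them rose and none fell (2 at an unadjusted p under 0.05). The part of any of these in the differences of the Nduf genes was not tested.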

How the data were processed

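Biotin-labelled total RNA of 1 lung lobe per mouse was hybridised to Affymetrix arrays. The deposited values are log2 expression made by the authors with RMA, per the labels, which corrects background, normalises quantiles and summarises probes per feature. No source used here gives the RMA version, probe set definition or build. Of 25428 features, 24705 had 1 symbol in the platform table and 723 were unnamed but tested. Spans, biotypes and promoter windows came from RefSeq (GRCm38.p6). All 6 arrays entered limma (lmFit and eBayes, version 3.58.1 in R 4.3.3), unfiltered and with genotype as the only term. Tests were 2-sided, and p-values were adjusted by Benjamini-Hochberg across every feature, with 0.05 as the threshold. The steps were tested on simulated data. The members and lists were chosen with earlier results of these data known, and lists are described by counts and medians without a test. Values per array are given for Nfat5, the core subunits, Ndufa4, Ndufa4l2, Ndufab1, up to 4 members with the smallest p per class, and members that passed against the main direction. Of other lists up to 2 genes per direction were named. Ndufb5, Ndufb7, Ndufb9 and Tmem126b were named beyond this rule, and markers that passed and some that did not were named, after their values were seen. Alternatives were a filter on dim features, a block for the mouse number, cyclic loess, median centring, trend and robust moderation, no moderation, array weights, protein-coding features only, removal of the span trend and leaving out each array. Arrays give no read depth. Plots were made in Python 3.11.15 (matplotlib 3.10.9).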

Additional observations from a re-analysis of the deposited data

How the results depend on the processing

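Of the 10 Nduf calls, all were kept after cyclic loess, median centring, trend and robust moderation, with protein-coding features only and after dim features were left out (a filter at 2.98, which kept 40 of the 44 genes and added Ndufb7), and 9 with array weights. With dim features left out, 10 Nduf genes rose and 1 fell, against 23.3% and 23.5% of all features kept. Without variance moderation the number of Nduf genes that rose was 3 (Ndufb2, Ndufs7 and Ndufv1) and that of other complex I genes that fell was 0, as far fewer features passed at all (4.40% higher and 3.41% lower). With the span trend removed 4 Nduf genes fell, against 13.2% of protein-coding features, and the median was -0.05. Leaving out 1 array gave 5 to 9 Nduf genes that rose, 1 to 3 that fell, 0 to 3 other complex I genes that fell, and medians of 0.015 to 0.26. In these fits 5.75% to 12.3% of all features rose and 6.12% to 12.7% fell. Differences turned sign in some of these fits, with ranges of -0.90 to 0.17 for Ndufa3, -0.42 to 0.11 for Ndufc1, -0.59 to 0.59 for Ndufab1 and -0.022 to 0.46 for Ndufa9. A fit that leaves out an array has 5 arrays and wider errors, and the cause of single lost calls was not tested. Mice of both genotypes shared only a number: deviations from the group means of mice with the same number correlated at 0.065, -0.010 and 0.0072, and the mouse number as a replicate block gave 9 genes that rose and 1 that fell, with Ndufa7 lost (1.07, adjusted p = 0.0575) and Ndufb7 gained. With 3 arrays per genotype, precision was limited, and low values, such as those of Ndufb3, are compressed on this scale.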
